A study of Mus musculus with 48 samples.

Results

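The change in log2 signal over the first 30 min of actinomycin D was compared between fibroblasts with and without Zfp36. The line difference was the change in KO cells minus the change in WT cells, so a value above 0 means that the signal fell less, or rose more, in KO. All 45037 probe sets other than controls were tested. The comparison is between group means of the 19 of 48 arrays taken at 0 or 30 min, and the spread between replicates was estimated over all 48. The 19 were 5 arrays of WT at 0 min, 5 of WT at 30 min, 4 of KO at 0 min and 5 of KO at 30 min. The 48 arrays include none of KO replicate 5 at 0 min. WT (Zfp36 +/+) and KO (Zfp36 -/-) cells were lines grown from littermate embryos (E14.5) of 129/B6 parents heterozygous for TTP, cultured from the body without head and organs. By the labels each genotype appears to be 1 line, and if so a difference between lines and an effect of Zfp36 cannot be told apart. Both lines spent 16 h in 0.5% serum and then 90 min in 10% serum before actinomycin D, an inhibitor of transcription, was added at the time called 0 min. Each sample pooled 3 dishes (100 mm). Sample names put the actinomycin D at 0.5 ug/ml and the series text at 5 ug/ml, and which holds is not known. Per the series text the experiment was repeated on 5 separate days, the lines in parallel, and the p-values measure the spread between these repeats of the same lines.

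Zfp36 encodes tristetraprolin (TTP), a zinc finger protein that recognises AU-rich stretches of messenger RNA and recruits the enzymes that shorten the poly(A) tail. In fibroblasts, serum induces a wave of immediate-early transcripts, many of them short-lived, and TTP is itself one of these. Once transcription is blocked, the fall of a transcript reflects how fast its RNA is lost. The first interval therefore samples the shortest-lived transcripts, some of which are near the floor of the array by its end.

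The array medians lay between 8.47 and 8.56 on the log2 scale and the 5th percentiles between 8.02 and 8.13, so signals near 8 were at the floor. The arrays of replicates 1 to 3 and of replicates 4 and 5 separated on the first principal component of deviations from the group means, which held 39.2% of the variance. Line differences are therefore also given within each set of replicates; within replicates 4 and 5, KO at 0 min had 1 array, and their p-values assume that it varies like the other groups. Fibroblast markers were high in both lines, with 12 of 14 above a signal of 9 in WT and 12 of 14 in KO at 0 min. Above 9 in WT were 0 of 10 epithelial, 2 of 10 muscle, 1 of 9 endothelial, 1 of 9 macrophage and blood, 1 of 10 neural and 1 of 7 cartilage and bone markers. In KO the counts were 0, 1, 0, 1, 2 and 1. None of these 7 marker lists held a member whose line difference passed the threshold. The lines already differed at 0 min, with 3684 probe sets higher in KO (8.18% of those tested) and 3245 lower (7.21%). At 30 min these counts were 3850 (8.55%) and 3279 (7.28%).

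Early falls outnumbered early rises in each line, and differences between the lines were few. Each percentage in brackets is of all probe sets tested. By limma with Benjamini-Hochberg adjustment over all probe sets, 504 probe sets fell over 30 min in WT (1.12%) and 382 in KO (0.848%), while 7 rose in WT (0.0155%) and 6 in KO (0.0133%). The line difference passed the adjusted threshold of 0.05 for 10 probe sets (0.0222%), of which 7 lay above 0 (0.0155%) and 3 below 0 (0.00666%). After quantile normalization or median centring 10 lay above 0 and 1 below 0, so that the share above 0 went from 70% to 90.9%. Without replicate 4, and without replicate 5, 4 lay above 0 and 1 below 0. With the spread estimated on the 19 arrays alone, only Gadd45g (adjusted p = 0.00368), Itga5 1458996_at (0.00368) and 1446503_at (0.00614) passed. The same estimates then had an adjusted p of 0.351 for Gadd45b, 0.27 for Itga5 1457561_at, 0.351 for 1438527_at and 1 for Mtss1, Sfswap, 1444627_at and 1446850_at. With the 2 sets of replicates as a block, 13 lay above 0 and 3 below 0, including all 10. Each of the 7 also fell in WT past the threshold, so all 7 were counted as a slower early fall in KO (0.0155%). They mark the growth arrest genes Gadd45g and Gadd45b, the integrin gene Itga5 (2 probe sets), the cytoskeletal gene Mtss1, the splicing regulator gene Sfswap, and 1 probe set, 1438527_at, that is assigned to several genes. A slower early fall by this count includes probe sets that started lower in KO and overlapped with WT at 30 min. The 3 below 0 carry no gene symbol, and 2 of them fell in KO past the threshold, which counts as a faster early fall in KO (0.00444%). The called differences ranged in size from 0.22 to 0.96, against a median standard error (SE) of 0.064 over all probe sets. At an unadjusted p under 0.05 there were 1844 probe sets (4.09%), of which 425 lay above 0 (0.944%) and 108 of those also fell in WT past the adjusted threshold (0.24%).

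**Figure D1:**
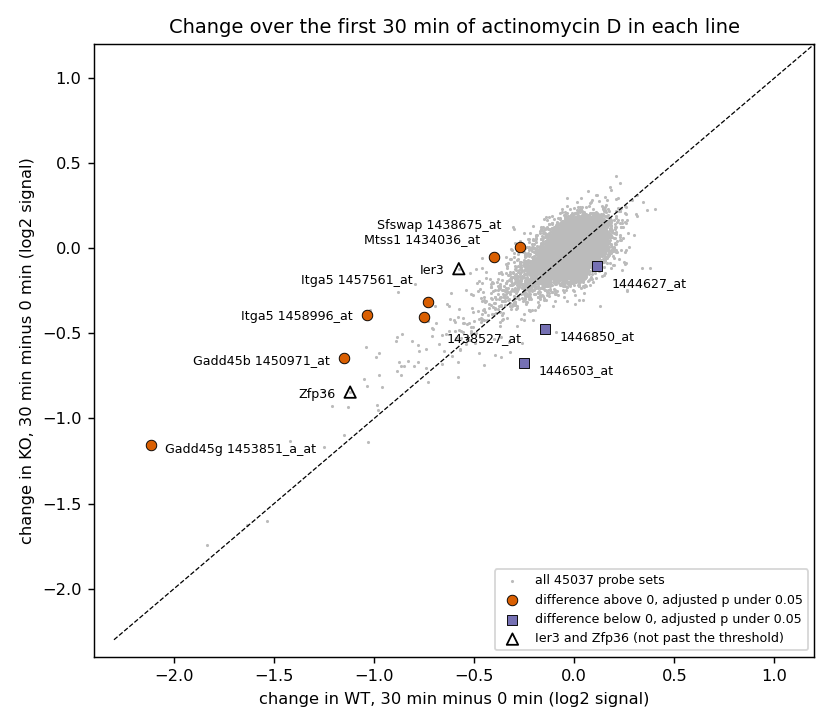
Change in log2 signal from 0 to 30 min in WT (x axis) and in KO (y axis), each point 1 probe set, with the line of equal change dashed; 1 of the 45037 probe sets lies outside the axes. Gadd45g, at -2.12 in WT and -1.16 in KO, stands farthest from the dashed line among the called probe sets.

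Gadd45g and Gadd45b encode small nuclear proteins that respond to stress and growth arrest and bind the kinase MEKK4. The Gadd45g signal (probe set 1453851_a_at) at 0 min was 11.47, 11.52, 11.75, 11.36 and 11.32 in WT replicates 1 to 5 and 10.08, 9.98, 10.26 and 10.15 in KO replicates 1 to 4. At 30 min it was 9.45, 9.50, 9.45, 9.23 and 9.21 in WT and 8.79, 9.02, 8.89, 9.16 and 8.94 in KO. WT arrays were above every KO array at both times, and the gap narrowed. The signal fell 4.33-fold in WT (log2 change -2.12, SE 0.076) and 2.23-fold in KO (-1.16, SE 0.081). The line difference was 0.96 (SE 0.11, 95% interval 0.73 to 1.18, adjusted p = 8.02e-07 by limma), and it was 0.91 in replicates 1 to 3 alone and 1.02 in replicates 4 and 5 alone.

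Gadd45b (1450971_at) moved in the same direction with a smaller size. Its signal at 0 min was 10.83, 10.74, 11.08, 10.68 and 10.78 in WT and 10.12, 10.08, 10.15 and 10.01 in KO. At 30 min it was 9.80, 9.75, 9.62, 9.61 and 9.57 in WT and 9.49, 9.34, 9.46, 9.44 and 9.48 in KO. The groups again did not overlap at either time, with KO lower. The log2 change was -1.15 in WT (SE 0.054) and -0.65 in KO (SE 0.058), a line difference of 0.51 (SE 0.079, 95% interval 0.35 to 0.67, adjusted p = 0.000806). In replicates 1 to 3 alone it was 0.48 (adjusted p = 0.219), and in replicates 4 and 5 alone 0.58 (adjusted p = 0.0748). Of the other Gadd45b probe sets, 1449773_s_at had a line difference of 0.28 (SE 0.12, adjusted p = 1), with changes of -1.21 in WT and -0.93 in KO, and 1420197_at had 0.04 (SE 0.062). The third member of the family, Gadd45a (1449519_at), a p53 target, had small changes that did not pass in either line. Its mean signal went from 9.32 ± 0.19 (SD, n = 5) to 9.16 ± 0.13 (SD, n = 5) in WT and from 9.25 ± 0.097 (SD, n = 4) to 9.17 ± 0.081 (SD, n = 5) in KO. Its line difference was 0.07 (95% interval -0.15 to 0.29, adjusted p = 1).

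The 250 bases upstream of the start of each Gadd45 gene are shown, because 2 of these 3 related genes fell early and carried a line difference and the third did not. They are from RefSeq on GRCm38.p6, 5′ to 3′ on the gene's strand, with TATAAA (the TATA box), CACGTG (the core of an E-box) and CCAAT (the CCAAT box) in capitals; all 3 genes matched. The regions are chr13:51846425-51846674 (plus strand) for Gadd45g, chr10:80929841-80930090 (plus) for Gadd45b and chr6:67037408-67037657 (minus) for Gadd45a.
Gadd45g: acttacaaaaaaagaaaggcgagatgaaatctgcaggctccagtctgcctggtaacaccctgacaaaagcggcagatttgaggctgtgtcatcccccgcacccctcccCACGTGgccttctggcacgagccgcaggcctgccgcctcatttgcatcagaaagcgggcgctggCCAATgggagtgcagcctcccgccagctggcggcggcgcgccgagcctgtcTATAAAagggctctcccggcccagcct
Gadd45b: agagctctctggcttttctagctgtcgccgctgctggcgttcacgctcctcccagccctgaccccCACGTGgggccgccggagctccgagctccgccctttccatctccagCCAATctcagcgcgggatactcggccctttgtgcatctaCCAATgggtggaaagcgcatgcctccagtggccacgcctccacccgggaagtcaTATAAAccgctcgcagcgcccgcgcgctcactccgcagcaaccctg
Gadd45a: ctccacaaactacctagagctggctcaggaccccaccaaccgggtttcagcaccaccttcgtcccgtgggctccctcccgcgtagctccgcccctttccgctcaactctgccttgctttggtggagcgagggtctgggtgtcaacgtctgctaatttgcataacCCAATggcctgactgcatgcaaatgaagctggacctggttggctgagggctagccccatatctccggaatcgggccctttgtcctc
Gadd45g holds TATAAA beginning 27 bases before the start and Gadd45b 46 bases before it, and Gadd45a holds none. CACGTG begins 142 bases before the start in Gadd45g and 185 in Gadd45b, and is not in the Gadd45a window. CCAAT occurs in all 3, beginning 78 bases before the start in Gadd45g, 139 and 100 in Gadd45b and 86 in Gadd45a. Searched on both strands of 32851 promoter windows of 250 bases, TATAAA was in 12.4%, CACGTG in 6.02% and CCAAT in 33.8%. These motifs do not overlap one another. TGACGTCA and TGAGTCA, known binding sequences of CREB and AP-1, were in 1.55% and 4.46% of windows and in none of the 3 shown. The match describes the letters in these windows, and these data measure no binding. Whether these bases bear on a line difference measured with transcription blocked was not tested.

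Itga5 encodes the alpha5 subunit of the fibronectin receptor. Its probe set 1458996_at read 9.96, 9.83, 10.10, 9.97 and 9.90 in WT at 0 min and 9.0, 8.98, 8.86, 8.82 and 8.91 at 30 min. In KO it read 9.24, 9.16, 9.03 and 9.19 at 0 min and 8.83, 8.77, 8.69, 8.83 and 8.70 at 30 min. KO was lower without overlap at 0 min. At 30 min the 2 lines overlapped narrowly, and KO was still lower past the threshold (KO minus WT -0.15, adjusted p = 0.00534 by limma). The change was -1.04 in WT (SE 0.041) and -0.39 in KO (SE 0.044), a line difference of 0.64 (SE 0.06, 95% interval 0.52 to 0.76, adjusted p = 2.42e-09). It was 0.63 in replicates 1 to 3 alone and 0.64 in replicates 4 and 5 alone. A second probe set, 1457561_at, had a KO minus WT of -0.45 at 0 min and -0.03 at 30 min (adjusted p = 0.776 by limma). It fell by 0.73 in WT and by 0.32 in KO, to 8.61 and 8.58, with a line difference of 0.42 (SE 0.07, adjusted p = 0.00257). That difference was 0.34 in replicates 1 to 3 alone (adjusted p = 0.985) and 0.48 in replicates 4 and 5 alone, and it did not pass without replicate 3, 4 or 5 (0.38 to 0.40, adjusted p 0.108 to 0.152).

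The brightest Itga5 probe set, 1423267_s_at, showed no such early fall. Its mean was 11.15 ± 0.16 (SD, n = 5) at 0 min and 11.14 ± 0.14 (SD, n = 5) at 30 min in WT, and 10.50 ± 0.26 (SD, n = 4) and 10.61 ± 0.27 (SD, n = 5) in KO. Its line difference was 0.12 (SE 0.26, 95% interval -0.41 to 0.64), and that of 1423268_at was 0.19 (SE 0.26). The early loss of signal was thus seen by 2 of the 4 Itga5 probe sets. Where each probe set lies on the transcript, and whether the 2 early fallers detect the spliced messenger RNA, was not tested.

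Probe set 1438527_at, assigned to several genes and so not named by 1, fell in WT from 9.15 ± 0.068 (SD, n = 5) to 8.40 ± 0.040 (SD, n = 5). In KO it fell from 8.77 ± 0.12 (SD, n = 4) to 8.37 ± 0.049 (SD, n = 5). The lines stood apart at 0 min and overlapped at 30 min. KO minus WT was -0.39 at 0 min and -0.04 at 30 min (adjusted p = 0.601 by limma). Both 30 min means lay below the lowest array median, 8.47. The line difference was 0.35 (SE 0.054, adjusted p = 0.000771), with 0.37 in replicates 1 to 3 alone (adjusted p = 0.219) and 0.30 in replicates 4 and 5 alone (adjusted p = 0.196). Without replicate 2 it was 0.33 (adjusted p = 0.0545).

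Mtss1 encodes a protein that binds actin and bends membranes. Its probe set 1434036_at read 9.30, 9.39, 9.36, 9.44 and 9.63 in WT at 0 min and 9.02, 9.12, 8.98, 8.95 and 9.05 at 30 min. In KO it read 8.70, 8.67, 8.68 and 8.62 at 0 min and 8.54, 8.59, 8.60, 8.65 and 8.69 at 30 min. Every WT array was above every KO array at both times, and the KO values at the 2 times overlapped. The change was -0.40 in WT (SE 0.043) and -0.05 in KO (SE 0.046, adjusted p = 0.834), a line difference of 0.35 (SE 0.063, adjusted p = 0.0129). The difference was 0.20 in replicates 1 to 3 alone (adjusted p = 0.985) and 0.58 in replicates 4 and 5 alone (adjusted p = 0.0063). It passed without replicate 1, and not without replicate 2, 3, 4 or 5 (0.28 to 0.38, adjusted p 0.0545 to 0.492). A second Mtss1 probe set, 1424826_s_at, had a line difference of 0.22 (SE 0.058, adjusted p = 0.876), and the 4 others lay between -0.07 and 0.12.

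Sfswap encodes a serine and arginine-rich regulator of splicing. It was the only probe set among the 7 that was higher in KO at 0 min. The signal of 1438675_at at 0 min was 8.84, 8.88, 8.64, 8.81 and 8.81 in WT and 9.15, 8.98, 8.89 and 8.95 in KO. At 30 min it was 8.62, 8.53, 8.52, 8.45 and 8.50 in WT and 9.03, 9.03, 9.03, 8.96 and 8.97 in KO. KO was above WT without overlap at both times, narrowly at 0 min. The change was -0.27 in WT (SE 0.036) and 0.01 in KO (SE 0.038), a line difference of 0.28 (SE 0.053, 95% interval 0.17 to 0.39, adjusted p = 0.0169). It was 0.25 in replicates 1 to 3 alone (adjusted p = 0.985) and 0.35 in replicates 4 and 5 alone (adjusted p = 0.0343), and it did not pass without replicate 2, 4 or 5 (0.25 to 0.28, adjusted p 0.302 to 0.788). The other 5 Sfswap probe sets had line differences between 0.02 and 0.14, each with an adjusted p of 1.

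**Figure D2:**
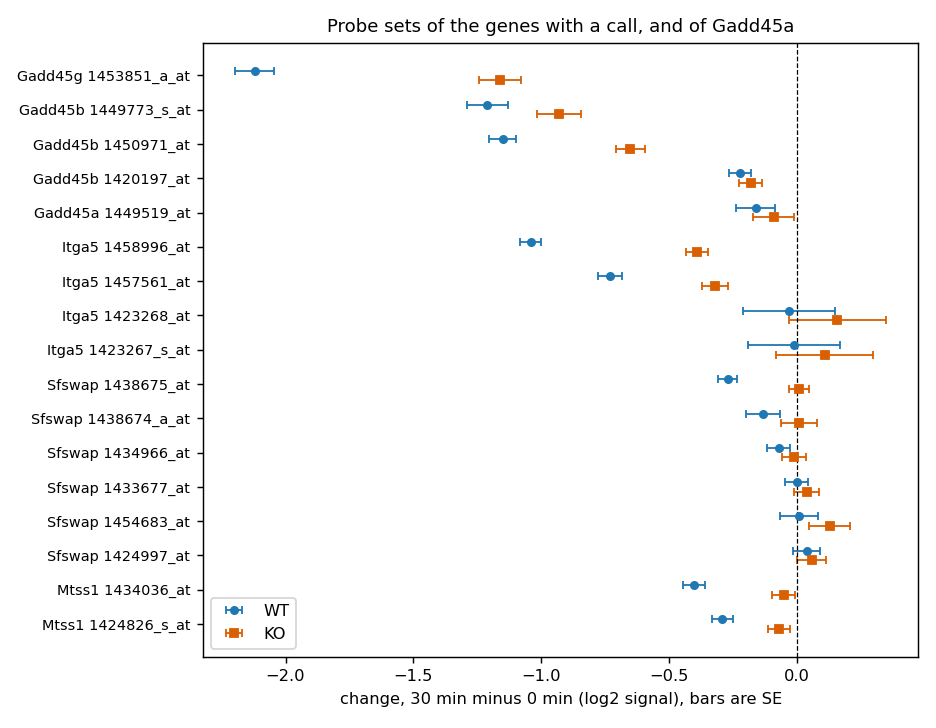
Change from 0 to 30 min (x axis, log2 signal) in WT (circles) and KO (squares) with SE bars, for probe sets of the called genes (of Mtss1 the 2 brightest at 0 min in WT) and of Gadd45a. WT and KO are far apart for 1453851_a_at, 1450971_at, 1458996_at and 1457561_at, and close for the Itga5 probe sets 1423267_s_at and 1423268_at, whose SE is larger.

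The level at the start differed between the lines for every called probe set. Of the 7 with a difference above 0, 6 were lower in KO at 0 min past the threshold, by 1.37 for Gadd45g, 0.80 for Itga5 1458996_at, 0.73 for Gadd45b, 0.45 for Itga5 1457561_at, 0.39 for 1438527_at and 0.75 for Mtss1. Sfswap was higher in KO by 0.20. All 3 probe sets with a difference below 0 were higher in KO at 0 min. A matched start was defined as a mean of at least 9 in both lines and a difference of at most 0.25 at 0 min. None of the 7 met it, and limma called 0 probe sets with a slower early fall from a matched start (0% of those tested). Without replicate 2 there was 1 such call, Csrnp1 (0.59, adjusted p = 0.0109). Of the 7625 probe sets with a matched start (16.9% of all tested), 156 fell in WT (0.346% of all tested). Of the 156, 21 had a line difference above 0 at an unadjusted p under 0.05 (0.0466% of all tested). The 0 min arrays enter both the start level and the line difference, so the 2 are not independent. The part of the start level in the line differences was not tested.

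For Gadd45g, Gadd45b, Itga5 and 1438527_at most of the fall was over by 30 min. Gadd45g had completed 88.3% of its 120 min fall in WT and 93.5% in KO, and Gadd45b 86.9% and 107% (over 100% where the 120 min mean lay above the 30 min mean). The shares were 93.0% and 92.4% for Itga5 1458996_at and 101% and 96.0% for 1438527_at. Mtss1 had completed 50.8% in WT and 42.4% in KO, where its signal lay near 8.6 throughout. Sfswap had completed 82.3% in WT and -1.6% in KO, where its 30 min mean was not below its 0 min mean. On 1450971_at, Gadd45b overlapped between the lines from 60 min on, and Gadd45g overlapped at 90 and 120 min. Gadd45g nevertheless stayed lower in KO past the threshold at 60, 90 and 120 min. Its KO minus WT was -0.36, -0.25 and -0.21 (adjusted p = 0.0009, 0.0141 and 0.0402 by limma). On Gadd45b 1449773_s_at, KO stayed lower past the threshold at 60, 90 and 120 min. There KO minus WT was -0.31, -0.24 and -0.24 (adjusted p = 0.00636, 0.0285 and 0.0259 by limma). On the dim Gadd45b probe set 1420197_at it did not pass at these times.

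With a background of the array floor subtracted from the linear signal, the share left at 30 min was 15.2% in WT and 27.4% in KO for Gadd45g, 35.5% and 52.4% for Gadd45b, and 29.9% and 56.0% for Itga5 1458996_at. For Sfswap it was 57.0% and 102%. On these values 1 line difference passed the threshold, that of Itga5 1458996_at (0.91, adjusted p = 0.000635). Gadd45g had a line difference of 0.85 (adjusted p = 0.851), Gadd45b 0.56 (adjusted p = 0.171) and Sfswap 0.84 (adjusted p = 0.0597). All 7 thus kept their direction and 6 lost the call.

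The interval from 60 to 120 min shares no array with the first 30 min and was tested in the same way. It gave 1 line difference above 0 (0.00222%) and 5 below 0 (0.0111%), with 4778 probe sets at an unadjusted p under 0.05 (10.6%). None of the 7 probe sets was among the calls by limma, and at an unadjusted p under 0.05 Sfswap was the only 1 of them. Gadd45g had a late difference of 0.15 (SE 0.11, adjusted p = 0.599), Gadd45b 0.03 (SE 0.079) and Itga5 1458996_at -0.01 (SE 0.06). Sfswap had -0.22 (SE 0.053, unadjusted p = 0.000147, adjusted p = 0.293), as its KO signal went from 8.78 at 60 min to 8.63 at 90 min and 8.55 at 120 min. Its WT signal was 8.48, 8.49 and 8.46 at those times. On Sfswap 1438675_at, KO was above WT without overlap at each of the 5 times, narrowly at 0 and 120 min. At 0 min KO minus WT was 0.43 on 1434966_at and -0.05 on the brightest Sfswap probe set, 1433677_at. On 1424997_at, 1438674_a_at and 1454683_at it was 0.01, 0.06 and -0.13.

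**Figure D3:**
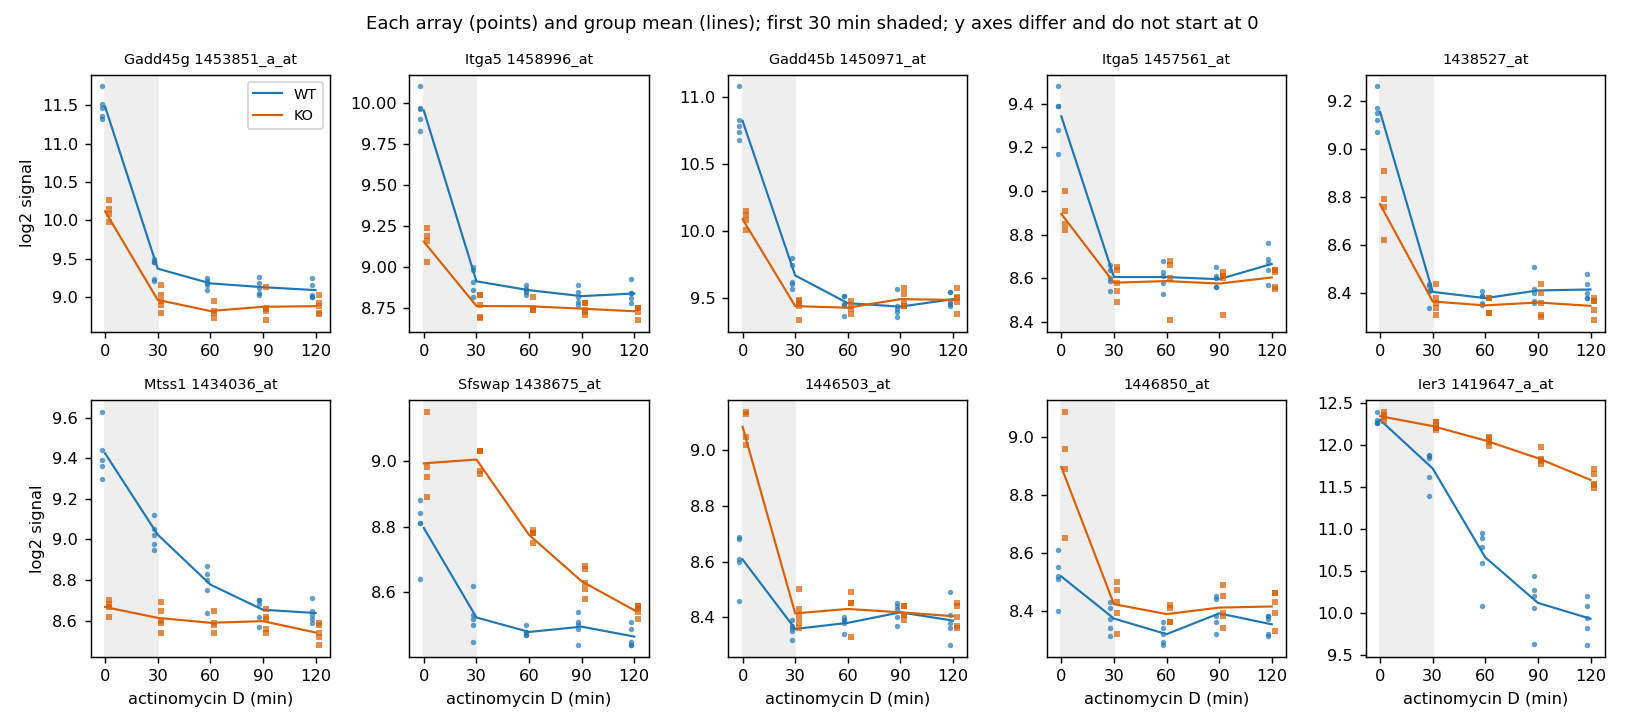
Log2 signal (y axis, a range of its own in each panel, not from 0) against minutes of actinomycin D (x axis) for the 7 probe sets above 0, the 2 with a faster early fall in KO, and Ier3. Points are arrays and lines are group means, WT as circles and KO as squares; Gadd45g, Gadd45b, Itga5 and 1438527_at level off after 30 min in both lines, and the Ier3 means are lower at each later time.

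The 3 probe sets with a difference below 0 were dim. Probe set 1446503_at fell from 8.61 ± 0.090 (SD, n = 5) to 8.36 ± 0.024 (SD, n = 5) in WT and from 9.09 ± 0.057 (SD, n = 4) to 8.41 ± 0.053 (SD, n = 5) in KO, a line difference of -0.42 (SE 0.049, adjusted p = 8.02e-07). It was -0.48 in replicates 1 to 3 alone and -0.32 in replicates 4 and 5 alone (adjusted p = 0.101). Probe set 1446850_at went from 8.52 to 8.37 in WT and fell from 8.90 to 8.42 in KO, a line difference of -0.33 (SE 0.066, adjusted p = 0.0456). Probe set 1444627_at went from 8.23 to 8.34 in WT and from 8.38 to 8.28 in KO, a line difference of -0.22 (SE 0.042, adjusted p = 0.0335). Within replicates 1 to 3 these 2 differences were -0.38 (adjusted p = 0.145) and -0.22 (adjusted p = 0.985), and within replicates 4 and 5 they were -0.35 (adjusted p = 0.0354) and -0.18 (adjusted p = 0.999). The platform annotation names no gene for any of the 3, and the means of all 3 at 30 min lay below the lowest array median. Of the 5 fits that left out 1 replicate, 1446503_at passed in 5, 1446850_at in 1 (adjusted p up to 1) and 1444627_at in 1 (adjusted p up to 0.704).

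Ier3 (1419647_a_at), an immediate-early regulator of survival that the study followed up on these cells, started level in the 2 lines. At 0 min it read 12.30, 12.26, 12.40, 12.26 and 12.28 in WT and 12.33, 12.36, 12.29 and 12.40 in KO. At 30 min it read 11.87, 11.88, 11.85, 11.39 and 11.62 in WT and 12.20, 12.18, 12.20, 12.28 and 12.27 in KO. The lines overlapped at 0 min, and from 30 to 120 min every KO array was above every WT array. At 30 min KO exceeded WT by 0.50 (adjusted p = 0.000957). The change was -0.58 in WT (SE 0.11) and -0.12 in KO (SE 0.12), a line difference of 0.46 (SE 0.17, 95% interval 0.12 to 0.79) that did not pass (unadjusted p = 0.00866, adjusted p = 1). It was 0.32 in replicates 1 to 3 alone and 0.63 in replicates 4 and 5 alone. Ier3 had completed 24.4% of its 120 min fall in WT by 30 min and 15.8% of its KO fall.

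Zfp36 itself (1452519_a_at) fell from 9.86 ± 0.16 (SD, n = 5) to 8.74 ± 0.32 (SD, n = 5) in WT and from 9.51 ± 0.16 (SD, n = 4) to 8.67 ± 0.14 (SD, n = 5) in KO. The signal in KO was thus not at the floor at 0 min; where the probe set lies relative to the disruption is not known here, so it does not check the genotype. Its line difference was 0.28 (SE 0.12, 95% interval 0.02 to 0.53, adjusted p = 1).

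A few probe sets short of the threshold are described, chosen after their values were seen. The lowest adjusted p among those not called was 0.101. It belonged to Tnfaip3 1450829_at, a probe set of the gene for the NF-kappaB inhibitor A20, with a line difference of 0.28; a brighter Tnfaip3 probe set, 1433699_at, had 0.36 (adjusted p = 0.348). Arc, an activity-regulated cytoskeletal gene, fell from 9.97 ± 0.25 (SD, n = 5) to 9.17 ± 0.23 (SD, n = 5) in WT. In KO it went from 8.45 ± 0.14 (SD, n = 4) to 8.24 ± 0.12 (SD, n = 5), a line difference of 0.59 (adjusted p = 0.105). Nuak2, an AMPK-related kinase gene, had 0.62 (adjusted p = 0.142), from starts of 9.79 in WT and 8.56 in KO. In replicates 1 to 3 alone Arc had 0.61 (adjusted p = 0.000866) and Nuak2 0.63 (adjusted p = 0.00432), and in replicates 4 and 5 alone 0.65 and 0.67. With the 2 sets of replicates as a block, Arc (0.62, adjusted p = 2.34e-05), Nuak2 (0.65, adjusted p = 0.00281) and Tnfaip3 1433699_at (0.35, adjusted p = 0.0223) passed. Both were lower in KO at 0 min, by 1.52 for Arc and 1.23 for Nuak2.

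Csrnp1, a nuclear protein rich in cysteine and serine, and Nr4a1, an orphan nuclear receptor, had large differences from starts that were higher in KO. Csrnp1 fell from 10.47 ± 0.14 (SD, n = 5) to 9.43 ± 0.33 (SD, n = 5) in WT and from 10.72 ± 0.056 (SD, n = 4) to 10.14 ± 0.15 (SD, n = 5) in KO. Its line difference was 0.46 (SE 0.12, adjusted p = 0.705), 0.22 in replicates 1 to 3 alone and 0.82 in replicates 4 and 5 alone (adjusted p = 0.00177). Nr4a1 fell from 11.53 ± 0.22 (SD, n = 5) to 10.51 ± 0.48 (SD, n = 5) in WT and went from 12.07 ± 0.079 (SD, n = 4) to 11.70 ± 0.091 (SD, n = 5) in KO. Its line difference was 0.66 (SE 0.22, adjusted p = 1), 0.53 in replicates 1 to 3 alone and 0.80 in replicates 4 and 5 alone (adjusted p = 0.0398). The SD of both genes in WT at 30 min was above that of every other group named here for them.

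**Figure D4:**
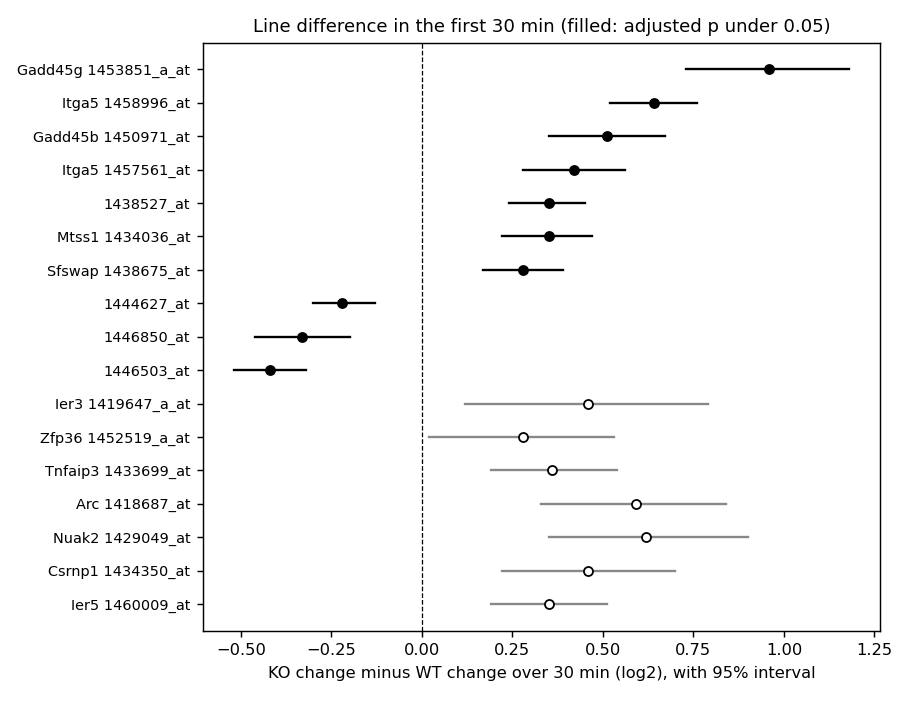
Line difference (KO change minus WT change over 30 min, log2, x axis) with its 95% interval, for the 10 called probe sets (filled) and for Ier3, Zfp36 and 5 others not past the threshold (open), the 5 chosen after their values were seen. The intervals of Ier3 (0.12 to 0.79) and Arc are wide beside that of Itga5 1458996_at (0.52 to 0.76).

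The probe sets that fell most over 30 min were also looked at as a set, by their mean change over the 2 lines and not by the line difference. This set was chosen after values were seen and is given as a description. It holds 82 probe sets of 56 genes with a mean change of -0.5 or lower. Their median change was -0.76 in WT and -0.61 in KO, and the median line difference was 0.15, with 65 of 82 above 0; over all probe sets the median was -0.012. Among the 38 with a matched start the median line difference was 0.10, with 28 above 0. Without replicate 3 these medians were 0.09, with 57 of 82 above 0, and 0.06, with 24 of 38 above 0. The median of the 82 was 0.11 in replicates 1 to 3 alone and 0.22 in replicates 4 and 5 alone. The 31 that were lower in KO at 0 min by over 0.25 had a median of 0.28, with 30 above 0. The 8 that were higher by over 0.25 had 0.09, with 5 above 0. Without replicate 3 these were 0.30, with 26 above 0, and 0.04, with 4 above 0. The 0 min arrays enter both this split and the line difference. The 82 include the called probe sets of Gadd45g, Gadd45b and Itga5, and 1438527_at.

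Several of the fastest falls had nearly equal estimates in the 2 lines. Ccn1, a matricellular gene, fell by 1.84 in WT and by 1.74 in KO on 1457823_at, a line difference of 0.09 (SE 0.13). Ier2 had changes of -1.25 and -1.17, Egr1 -1.03 and -1.14, and Jun -0.98 and -0.95. The phosphatase gene Dusp2 fell by 1.53 in WT and by 1.60 in KO, with a line difference of -0.07 (SE 0.14). Fos had changes of -0.98 and -0.75 and a line difference of 0.23 (SE 0.13), and Myc -1.13 and -0.93 and 0.20 (SE 0.13). None of these line differences passed, which does not show that they are equal.

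By gene list, taking for each gene its brightest probe set, calls were made in 1 of 22 lists. The lists were chosen with earlier results of these data known, so the counts by list are a description and not a test. The p53 targets and growth arrest genes held 2 calls above 0 of 26 measured, Gadd45g and Gadd45b, against 3 of 18193 genes overall. Their median line difference was 0.072, with 21 of 26 above 0, while over all genes the median was -0.013 and 41.6% were above 0. Of these 26 genes, 7 fell in WT and 2 in KO past the threshold. Mdm2, the p53 ubiquitin ligase gene, had a line difference of 0.18 (adjusted p = 1), and Cdkn1a, the p21 gene, 0.08 (adjusted p = 1). Apart from the 2 Gadd45 genes, no member of this list passed.

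The reported TTP targets held 0 calls of 25 by limma, with a median of 0.08 and 18 above 0; at an unadjusted p under 0.05 there were 3, Ier3, Plk3 and Zfp36. At 0 min in WT, 24 of 25 were above the floor and 16 of 25 above a signal of 9, with a median of 9.66. In WT 4 of the 25 fell past the threshold, namely Ier3, Fos, Myc and Zfp36, and in KO 3 did. The highest line differences in the list were those of Ier3 (0.46) and Plk3, a stress kinase gene, at 0.43 (SE 0.15, unadjusted p = 0.00779, adjusted p = 1). Tnf had -0.05 and Cxcl1, a chemokine gene, 0.15 (SE 0.12). The TTP family held 0 of 3, with a median of 0.036.

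The immediate-early transcription factors held 0 calls of 36, although 18 fell in WT and 14 in KO, with a median line difference of 0.07 and 26 above 0. At an unadjusted p under 0.05 there were 3 of them, Csrnp1, Nr4a1 and Nfil3, all above 0. The MAP kinase and receptor feedback genes held 0 of 26 (median 0.027), with 9 falling in WT and 6 in KO. At an unadjusted p under 0.05 there were 6, all above 0. Dusp6, a phosphatase gene that restrains ERK, had changes of -1.26 in WT and -0.84 in KO and a line difference of 0.42 (SE 0.14). Dusp1, a phosphatase gene of p38 and JNK that was higher in KO at 0 min by 1.12, had changes of -1.22 and -0.86 and a line difference of 0.36 (SE 0.14). The other 4 were the cytokine feedback genes Cish (0.30) and Socs1 (0.16), Dusp4 (0.23) and Rgs16 (0.24), each lower in KO at 0 min. The NF-kappaB subunits, inhibitors and targets held 0 of 19 (0.029), the survival genes 0 of 14 (0.088, with 12 above 0), and the cytokines, chemokines and growth factors 0 of 30 (0.018). The BMP and TGF-beta genes held 0 of 28 (-0.024) and the serum response, cytoskeletal and matricellular genes 0 of 22 (-0.046, with 2 above 0). The mRNA decay and AU-rich element binding factors held 0 of 37 (-0.016), circadian clock genes 0 of 15 (0.01), noncoding and nuclear RNA 0 of 14 (0.009), ribosomal protein genes 0 of 25 (-0.006) and glycolysis genes 0 of 13 (0.001). At an unadjusted p under 0.05, each list from NF-kappaB to glycolysis held at most 2 genes above 0 and 1 below 0 each. The 7 marker lists had medians between -0.096 and -0.005.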

How the data were processed

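RNA of mouse fibroblast lines was hybridised to Affymetrix Mouse Genome 2.0 arrays, per the labels. The deposited values are log2 signals per probe set and array, with the log base inferred from their range. Neither labels nor headers say how the authors summarised, background-corrected and normalised them, and their scaling was kept. The number of arrays limits the precision.

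Of 45101 probe sets, 64 controls were left out. In the platform annotation 34945 carry 1 symbol, 932 several and 9160 none, covering 18193 genes; 34741 were found in GRCm38.p6 by gene ID and 0 symbols changed. No 2 arrays held identical values.

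The tools were R 4.3.3, data.table (version 1.17.8) and limma 3.58.1. The fit had 1 mean per group over all 48 arrays in 10 groups, empirical Bayes with an intensity trend and robust prior, two-sided tests, and Benjamini-Hochberg adjustment over all 45037 probe sets. The later times entered the fit to share the spread between replicates. A slower early fall in KO needed a line difference above 0 and a WT change below 0, and a faster one a line difference below 0 and a KO change below 0, all past an adjusted p of 0.05. Scripts were tested on simulated data. Background subtraction took each array's 5th percentile from its linear signal, with a minimum of 16. The authors' values are relative within each array.

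The rule for named genes took, with 1 probe set per symbol (the highest mean over 48 arrays), Zfp36, Ier3, the 12 highest slower falls, the 8 highest from a matched start, the 8 lowest faster falls, the 4 highest and 4 lowest of other calls, and list members past the threshold. It gave Zfp36, Ier3, Gadd45g, Gadd45b and Mtss1; the other called probe sets and all other genes were named after their values were seen. The members and the 22 lists were chosen with earlier results of these data known.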

Additional observations from a re-analysis of the deposited data

Results flagged for a closer look

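The change over the first 30 min differed between the lines, by the test of the difference itself, for 10 probe sets. Above 0 were Gadd45g (0.96), Itga5 1458996_at (0.64), Gadd45b (0.51), Itga5 1457561_at (0.42), 1438527_at (0.35), Mtss1 (0.35) and Sfswap (0.28). Below 0 were the probe sets without a gene symbol 1444627_at (-0.22), 1446850_at (-0.33) and 1446503_at (-0.42).

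In KO at 0 min, 1 array read 9.28 for Zfp36, below the other 3, which read 9.58 to 9.60. Of 48 combinations of a probe set and a group of arrays looked at, it was the only 1 in which an array stood this far from the rest. Chance gives about 1 in 20 such combinations, so 1 of 48 is not above that share.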

How the results depend on the processing

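Of 159 values of the 10 called line differences under the alternatives, 107 kept their side of the threshold and 52 did not, and none changed sign; of 128 values for Ier3, Zfp36, Tnfaip3, Arc, Nuak2, Csrnp1, Nr4a1 and Ier5, 21 passed. Counts are given as above 0, below 0, slower in KO and faster in KO, with 7, 3, 7 and 2 as reported. The 19 arrays at 0 and 30 min alone gave 2, 1, 2 and 1. Background subtraction gave 1, 0, 1 and 0. Quantile normalization and median centring each left 1 below 0 and 1 faster, and a fit without trend or robust prior left 1 faster. Replicates 1 to 3 alone gave 4, 1, 4 and 1. Chosen after seeing the data, replicates 4 and 5 alone gave 14 above 0 and 14 slower, 3 of them from a matched start, and a block for these 2 sets of replicates gave 13 above 0 and 13 slower. Leaving out each replicate in turn gave 4 to 8 above 0, 1 to 2 below 0, 4 to 8 slower, 1 to 2 faster and 0 to 1 slower from a matched start.

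With the replicate number as a replicate block, 14 lay above 0 and 14 were slower. With the replicate block within each line the counts were 19, 5, 19 and 4, and 2 of the 19 slower also had a late line difference above 0. All 7 reported calls above 0 stayed under both blocks. Arc, Nuak2 and Tnfaip3 1433699_at passed under both blocks (adjusted p = 7.96e-05, 0.0033 and 0.0132 under the first). Same-numbered samples are not shown to be paired. Between the lines, deviations of 5 of 9 pairs correlated above 0.1 over 10629 probe sets (from -0.281 to 0.629) and 3 of 9 correlated best with their own number; within a line, between 0 and 30 min, 6 of 9 did so (-0.081 to 0.891), and 4 of 9. Signal over background limits the dim probe sets: all 7 above 0 end within about 1 log2 unit of the floor in KO except Gadd45b.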
